A study of Mus musculus with 8 samples.

Results

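Long intergenic noncoding RNAs (lincRNAs) were described in CD8+ tumor-infiltrating lymphocyte preparations from mice with melanoma. A lincRNA was taken as a member when the GENCODE M21 annotation of GRCm38 gave its gene the biotype lincRNA and its deposited value was 1 FPKM or more in at least 4 of the 8 libraries. The unit FPKM (fragments per kilobase of transcript, relative to sequencing depth) is a level per length. This rule took 265 lincRNAs of the 5614 listed in the files, among 55487 genes in all. The members were thus chosen by their FPKM in these same libraries, so the fact that they are expressed is not a result. Of the remaining lincRNAs, 3574 were listed at 0 in all 8 libraries, 1507 were detected but below 1 FPKM in every library, and 268 reached 1 FPKM in 1 to 3 libraries. At the edge of the rule, 4930532G15Rik had a fourth-highest value of 1 FPKM and was inside, and Gm47328 had 0.99 FPKM and was outside.

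The tumors grew from B16F10 cells, a melanin-producing mouse line, placed under the skin of C57BL/6 mice. The first group of 4 libraries came from mice given tacrolimus (FK506) intraperitoneally at 3 mg/kg every 5 days. The second group of 4 libraries came from mice given vehicle every 5 days. Treatment started 7 to 9 days after tumor injection, at a tumor volume near 50 mm3, and tumors were harvested 6 days after it began. Neither the age and sex of the mice nor whether each library came from a separate animal is given in the sources used here, so p-values measure only the spread between these libraries. Tacrolimus is an immunosuppressant that, in complex with FKBP12, blocks the phosphatase calcineurin and with it the entry of NFAT factors into the nucleus of stimulated T cells. The comparison asked which lincRNAs differed between libraries from tacrolimus-treated and vehicle-treated mice.

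LincRNAs are transcribed from their own promoters between protein-coding genes, and most are capped, spliced and polyadenylated like messenger RNAs. They are on the whole less abundant and more restricted to particular cell types than coding transcripts. Some organise nuclear bodies or silence chromatin, some host small nucleolar RNAs or microRNAs in their introns, and some act on a neighbouring gene. For most numbered gene models (names with Gm or ending in Rik) no function is annotated in the sources used here.

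Although labelled as sorted CD8+ lymphocytes, the libraries had melanoma markers at higher levels than T cell markers. The melanosome gene Pmel was at 4956 ± 736 FPKM in tacrolimus libraries and 6477 ± 1629 FPKM in vehicle libraries (SD, n = 4 each), and the co-receptor gene Cd8a at 18.6 ± 12.2 FPKM in tacrolimus libraries and 71.7 ± 54.5 FPKM in vehicle libraries. The level of 15 T cell markers, as the mean log2(FPKM + 1), lay between 2.09 and 4.38 in tacrolimus libraries and between 4.28 and 6.56 in vehicle libraries. It was lowest in tacrolimus replicate 2 and highest in vehicle replicate 1. The ranges of the groups overlapped only narrowly, so a fit with this level as a covariate cannot tell it apart from treatment. All 15 T cell markers and all 15 macrophage and monocyte markers had a lower mean in tacrolimus libraries, and none of either list was at 0 throughout. Macrophage marker levels lay between 3.47 and 4.47 in tacrolimus libraries and between 4.10 and 6.06 in vehicle libraries. Melanoma marker levels lay between 8.08 and 8.42 in tacrolimus libraries and between 7.97 and 8.67 in vehicle libraries, and 10 of 15 melanoma markers had a lower mean in tacrolimus libraries. So did 5 of 8 fibroblast and endothelial markers tested, 5 of 6 markers of dendritic, B, NK cells and neutrophils, and the 1 CD4 and regulatory T cell marker tested. In such mixed samples, fewer cells of a type and less RNA per cell cannot be told apart. The depth, estimated from the spacing of low values, was 15700000 to 19100000 fragments per library. A single fragment on a transcript of 1000 bases was therefore worth 0.0689 to 0.0861 FPKM.

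The members were mostly of low abundance. Of the 265, 201 averaged under 10 FPKM over the 8 libraries, 46 averaged from 10 to under 100 FPKM, and 18 averaged 100 FPKM or more. Their median level was 3.27 FPKM, where that of the protein-coding genes tested was 12.3 FPKM. All 8 libraries reached 1 FPKM for 147 members, and 30 members reached it in exactly 4. The summed level of the members was 13635 ± 1268 FPKM in tacrolimus libraries and 12786 ± 2914 FPKM in vehicle libraries (SD, n = 4 each). This was 1.38% to 1.71% of all FPKM in tacrolimus libraries and 1.14% to 1.88% in vehicle libraries. The ranges overlapped, and the 5 most abundant members made up 61.4% to 67.6% of the sum in each library.

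In annotated features, the members were set beside the 5349 lincRNAs outside the rule, as a description. The rule named none of these features, but FPKM is a level per length, so transcript length enters it. Their longest annotated transcript had a median of 1428 bases, against 921 bases outside the rule, and the median number of exons was 3 in both. The median distance to the nearest protein-coding gene was 16891 bases for members and 50609 bases outside the rule. Among members, 93 (35.1%) lay within 5000 bases of a coding gene or overlapped one, against 18.5% outside the rule. A divergent pair, with start sites within 2000 bases of a coding gene's start on the opposite strand, was found for 29 members (10.9%), against 4.13% outside the rule. Median GC content was 46.5% for members and 45.9% outside the rule. The members came from 20 chromosomes, with 5 on X and none on Y. Exons of 24 members overlapped an annotated exon on the same strand and those of 49 members one on the opposite strand. Whether counting used the strand is not given in the sources used here, so reads of such overlapping genes cannot be told apart.

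None of the 265 members passed an adjusted p of 0.05 in limma (Benjamini-Hochberg over the 13032 genes tested), where 0% of all genes passed. The smallest adjusted p among members was 0.147. With the melanoma marker level as a covariate, 6 members (2.26%) passed, where 2.56% of all genes tested did. Counted at an unadjusted limma p under 0.05, 13 members (4.91%) were higher and 15 (5.66%) lower in tacrolimus libraries, where 1.6% of all genes tested were higher and 15.8% lower. The groups did not overlap for 10 members higher (3.77%) and 5 lower (1.89%), against 0.767% and 10.2% of all genes tested. Without vehicle replicate 1, 27 members (10.2%) were higher at that unadjusted p, where 2.22% of all genes were, and without tacrolimus replicate 4, 8 (3.02%) were, where 1.1% of all genes were. For the lower side the count was 9 (3.40%) without tacrolimus replicate 2, where 12.2% of all genes were lower, and 25 (9.43%) without vehicle replicate 2, where 12.8% were. Since 3 members passed the expression rule through 1 group alone (F930017D23Rik and 4930533N22Rik through tacrolimus, C920006O11Rik through vehicle), their groups had to differ.

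The differences of the lincRNAs were centred above those of the coding genes. Their median log2 difference (the tacrolimus mean minus the vehicle mean of log2(FPKM + 1)) was 0.051, with quartiles at -0.20 and 0.28, while the median over all genes tested was -0.19, with quartiles at -0.37 and -0.0068. The protein-coding genes tested had a median of -0.21, and coding genes within the interquartile range of member levels had -0.24 (4067 genes). Of the members, 148 had a higher and 117 a lower mean in tacrolimus libraries, so that 44.2% were lower, against 75.7% of all genes tested. The median was 0.057 for 310 processed pseudogenes, 0.15 for 170 gene models of the annotation class TEC (models not yet supported by experiment), -0.041 for 225 antisense genes and -0.052 for 148 processed transcripts. No test of these lists was made. After median-of-ratios scaling the median of all genes tested moved to 0.0057 and that of the lincRNAs to 0.20, with 186 members higher and 79 lower. By unadjusted p, 35 members were then higher and 4 lower, where 5.69% and 5.64% of all genes tested were. Such a scaling shifts all genes nearly alike, so the sign of single small differences rests on it. The median within-group SD on the log2 scale was 0.43 for members and 0.34 for coding genes of like level.

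**Figure D1:**
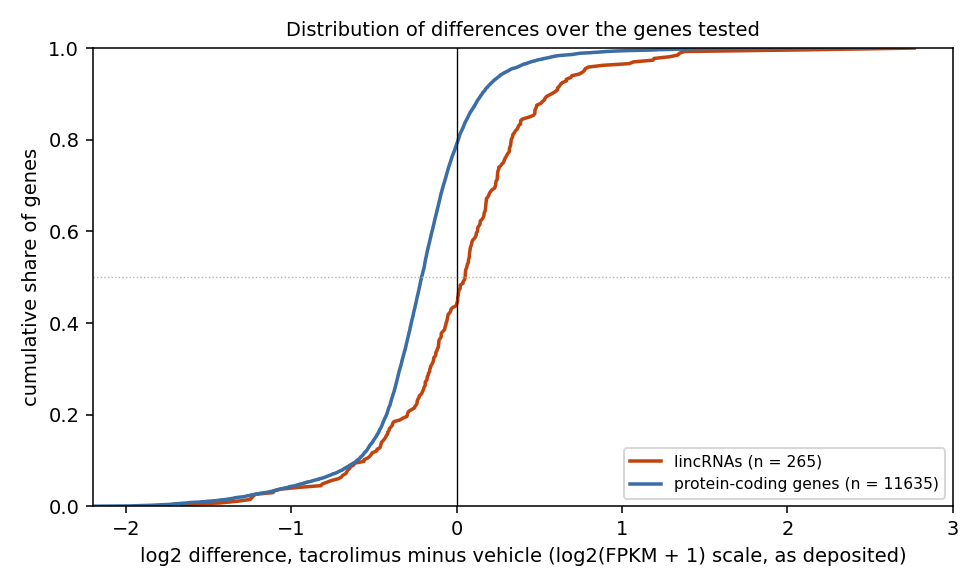
Cumulative share of genes (y axis) against the log2 difference of tacrolimus over vehicle libraries, from log2(FPKM + 1) of the deposited values (x axis), for 265 lincRNAs and 11635 protein-coding genes. The lincRNA curve crosses the dotted 50% line at 0.051 and the coding curve at -0.21.

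Malat1, an abundant nuclear transcript of speckles, the bodies that store splicing factors, was the most abundant member and made up 21.4% to 38.5% of the lincRNA sum. It was at 4843, 4052, 4092 and 5585 FPKM in tacrolimus replicates 1 to 4, and at 6576, 2261, 3483 and 3741 FPKM in vehicle replicates 1 to 4. Vehicle replicate 1 was the highest of all libraries and vehicle replicate 2 the lowest, so the groups overlapped (log2 difference 0.30, SE 0.29, limma adjusted p = 0.585). The log2 difference was 0.58 without vehicle replicate 1 and 0.062 without vehicle replicate 2. With the T cell marker level as a covariate it was 0.95 (limma adjusted p = 0.204). That fit cannot tell the marker level apart from treatment. With the melanoma marker level as a covariate the log2 difference of Malat1 was 0.088 (limma adjusted p = 0.899). Neat1, the scaffold of paraspeckles, averaged 4.96 ± 1.07 FPKM in tacrolimus libraries and 4.34 ± 2.63 FPKM in vehicle libraries, with vehicle replicate 1 again the highest at 8.22 FPKM. The coding gene nearest to Neat1, Frmd8, averaged 10.3 FPKM in tacrolimus libraries and 16.5 FPKM in vehicle libraries. 2900097C17Rik, the mouse counterpart of NORAD, a cytoplasmic RNA that binds Pumilio proteins, averaged 37.0 ± 9.82 FPKM in tacrolimus libraries and 49.8 ± 9.60 FPKM in vehicle libraries (log2 difference -0.44, limma adjusted p = 0.319). Of the list of nuclear body and architectural RNAs, 3 were members and 2 more were tested under other biotypes (Tug1 and Firre), and none of the 5 passed.

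The next most abundant members are little characterised. D5Ertd615e averaged 1874 ± 326 FPKM in tacrolimus libraries and 1643 ± 461 FPKM in vehicle libraries. 4930579D07Rik averaged 1334 ± 271 FPKM in tacrolimus libraries and 1328 ± 452 FPKM in vehicle libraries, a log2 difference of 0.055. Both genes overlapped between the groups, and neither passed the test. Gm19299 averaged 657 ± 139 FPKM in tacrolimus libraries and 556 ± 131 FPKM in vehicle libraries. Gm33053 was at 455 ± 133 FPKM in tacrolimus libraries and 371 ± 173 FPKM in vehicle libraries. AC132957.1 was at 311 ± 69.3 FPKM in tacrolimus libraries and 253 ± 83.9 FPKM in vehicle libraries, and Gm44386 at 267 ± 22.8 FPKM in tacrolimus libraries and 289.5 ± 55.8 FPKM in vehicle libraries. None of these 4 passed, and the difference of Gm44386 was -0.10 as deposited and 0.13 after median-of-ratios scaling. Bc1, known as a short cytoplasmic RNA of rodent neurons made by RNA polymerase III, averaged 269 ± 51.9 FPKM in tacrolimus libraries and 218 ± 95.9 FPKM in vehicle libraries. Its annotated transcript has 168 bases, shorter than the 240 to 260 bases by which effective length fell short of transcript length in the depth estimate, so its level per length is uncertain.

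Xist coats the inactive X chromosome in female cells and silences it. It was at 2.27, 0.37, 0.90 and 1.12 FPKM in tacrolimus replicates 1 to 4, and at 7.55, 1.01, 7.08 and 3.16 FPKM in vehicle replicates 1 to 4. Of the vehicle libraries, replicate 2 lay within the tacrolimus range (log2 difference -1.25, SE 0.46, limma adjusted p = 0.228). Tsix, the antisense gene that overlaps Xist, averaged 1.13 ± 0.34 FPKM in tacrolimus libraries and 3.87 ± 3.13 FPKM in vehicle libraries, and reads of the 2 genes cannot be told apart without strand. Jpx and Ftx are noncoding genes that promote Xist expression. Jpx averaged 6.48 ± 2.28 FPKM in tacrolimus libraries and 8.74 ± 1.39 FPKM in vehicle libraries. Ftx averaged 14.0 ± 2.31 FPKM in tacrolimus libraries and 12.8 ± 6.91 FPKM in vehicle libraries. None of the 4 genes of the X inactivation centre passed the test. Like Xist, the T cell markers were lowest in tacrolimus replicate 2 and highest in vehicle replicate 1. With the T cell marker level as a covariate the log2 difference of Xist was -0.19 (limma adjusted p = 0.825). As the T cell marker level nearly followed the treatment groups, that fit cannot tell them apart, and the cause was not tested. With the melanoma marker level as a covariate the log2 difference was -1.64 (limma adjusted p = 0.0622). After median-of-ratios scaling it was -1.12 (limma adjusted p = 0.439).

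Among lincRNAs of growth control and stress, Pvt1, whose gene lies next to Myc and whose promoter competes with that of MYC for enhancers in human cells, was the only one without overlap. Pvt1 was at 32.4, 27.2, 30.2 and 34.9 FPKM in tacrolimus replicates 1 to 4, and at 26.9, 23.8, 23.7 and 25.2 FPKM in vehicle replicates 1 to 4. The log2 difference was 0.31 (SE 0.13, limma adjusted p = 0.268) as deposited and 0.53 after median-of-ratios scaling (limma adjusted p = 0.392). Myc itself, 47612 bases away on the same strand, averaged 19.3 ± 2.66 FPKM in tacrolimus libraries and 27.9 ± 3.10 FPKM in vehicle libraries (log2 difference -0.51, SE 0.15, limma adjusted p = 0.195). The pair therefore had opposite signs as deposited, where the median over all genes tested was -0.19, and neither passed. Lncpint, a transcript induced by p53, was at 554 ± 67.8 FPKM in tacrolimus libraries and 503 ± 63.3 FPKM in vehicle libraries. Trp53cor1 (lincRNA-p21), another p53 target, next to Cdkn1a, was at 5.18 ± 1.47 FPKM in tacrolimus libraries and 4.44 ± 1.07 FPKM in vehicle libraries, and Cdkn1a was at 183 FPKM in tacrolimus libraries and 173 FPKM in vehicle libraries. Lockd, transcribed downstream of the cell cycle inhibitor gene Cdkn1b, was at 29.0 ± 6.96 FPKM in tacrolimus libraries and 24.5 ± 6.03 FPKM in vehicle libraries. Bvht (Braveheart), known from the commitment of cardiac cells, was at 18.7 ± 3.06 FPKM in tacrolimus libraries and 16.96 ± 5.11 FPKM in vehicle libraries. All 5 members of this list had a higher mean in tacrolimus libraries and none passed. The sign for Bvht turned to -0.043 without vehicle replicate 1.

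Small nucleolar RNA host genes carry in their introns the guide RNAs that modify ribosomal RNA. Of 21 genes in the list, 5 were lincRNA members and 10 were tested under other biotypes, and none of the 15 passed (9 higher, 6 lower, median log2 difference 0.061). Snhg6 was at 91.2, 111, 140 and 118 FPKM in tacrolimus replicates 1 to 4, and at 79.2, 107, 105 and 55.5 FPKM in vehicle replicates 1 to 4 (log2 difference 0.43, SE 0.22, limma adjusted p = 0.328). The groups overlapped, and an exon of Snhg6 overlaps Mcmdc2 on the opposite strand. Snhg20 averaged 21.5 ± 3.75 FPKM in tacrolimus libraries and 19.3 ± 5.28 FPKM in vehicle libraries. Snhg12 averaged 15.7 ± 2.82 FPKM in tacrolimus libraries and 19.2 ± 5.07 FPKM in vehicle libraries. Snhg10 averaged 8.10 ± 3.55 FPKM in tacrolimus libraries and 9.65 ± 0.93 FPKM in vehicle libraries, and Epb41l4aos 11.1 ± 2.35 FPKM in tacrolimus libraries and 9.48 ± 1.70 FPKM in vehicle libraries. Each of these 4 overlapped between the groups. The most abundant host gene tested, Gas5 (biotype processed transcript), was at 322 ± 53.6 FPKM in tacrolimus libraries and 340.1 ± 103 FPKM in vehicle libraries. Of the 9 imprinted noncoding RNAs listed, none was a lincRNA member, 2 were tested under other biotypes (Airn and Peg13), both with a lower mean in tacrolimus libraries, and neither passed.

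**Figure D2:**
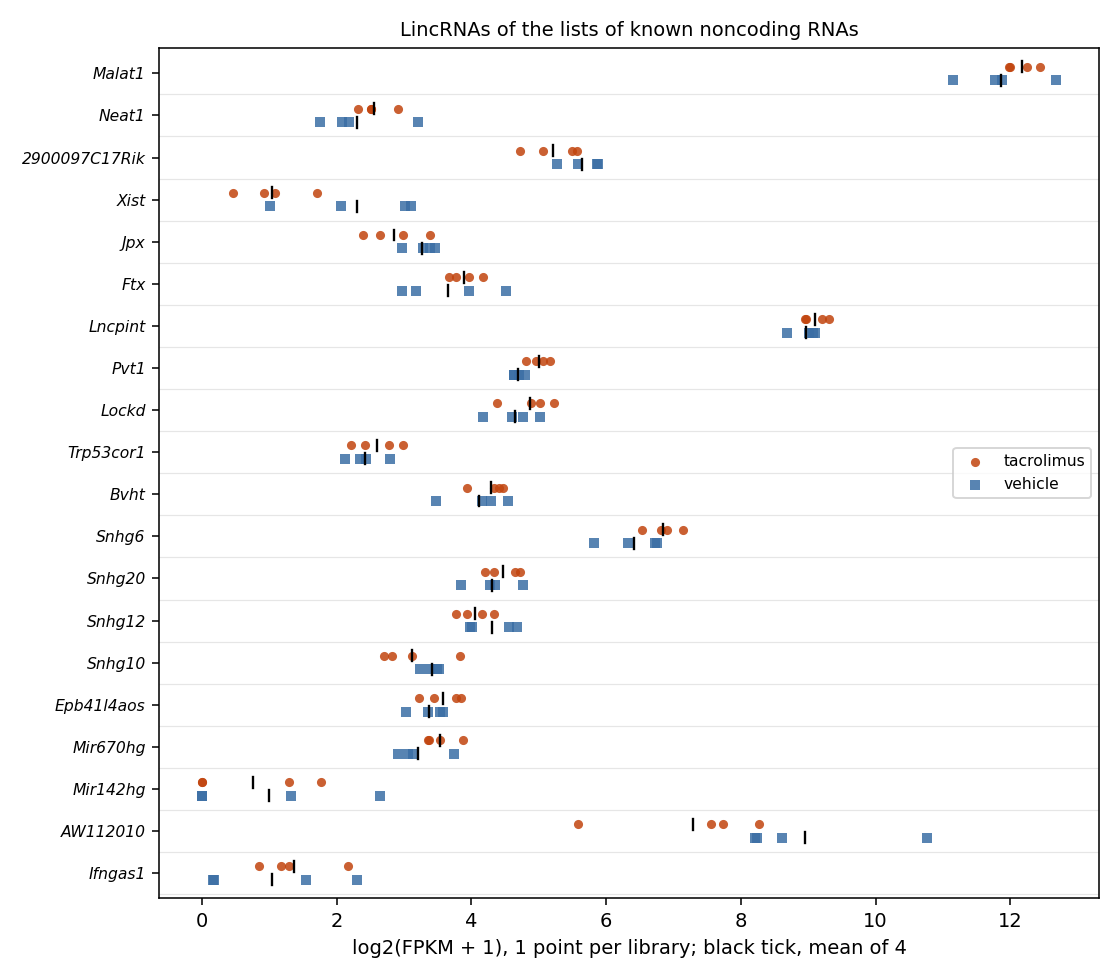
Level of 20 lincRNAs of the lists of known noncoding RNAs (rows) as log2(FPKM + 1) (x axis), with 1 point per library, tacrolimus circles above vehicle squares, and a black tick at each mean of 4. Pvt1 is the only row whose groups do not overlap; in AW112010 tacrolimus replicate 2 lies far left and vehicle replicate 1 far right.

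MicroRNA genes lay on the same strand within the span of 8 members. MicroRNAs pair with messenger RNAs through their seed, bases 2 to 8 of the mature strand, and the host transcript is the precursor from which they are cut. The libraries measured the host transcripts, not the mature microRNAs. The mature sequences of 5 hosts that are named below are given from RefSeq on GRCm38.p6, 5′ to 3′, with the seed in capitals, to show which seeds the hosts carry.
mmu-miR-142a-5p (Mir142hg): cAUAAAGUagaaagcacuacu
mmu-miR-142a-3p (Mir142hg): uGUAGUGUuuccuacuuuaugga
mmu-miR-129-5p (Gm3294 and Mir670hg): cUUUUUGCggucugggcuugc
mmu-miR-670-5p (Mir670hg): aUCCCUGAguguauguggugaa
mmu-miR-374b-5p (Ftx): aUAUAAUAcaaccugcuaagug
mmu-miR-9-5p (C130071C03Rik): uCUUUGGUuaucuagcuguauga

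The mature miR-129-5p, with the seed UUUUUGC, is cut from 2 genes, Mir129-1 within Gm3294 on chromosome 6 and Mir129-2 within Mir670hg on chromosome 2, and the other hosted seeds differed from it and from each other. Gm3294, a host named after its values were seen, was at 2.70, 22.3, 2.67 and 13.3 FPKM in tacrolimus replicates 1 to 4, and at 0.54, 7.00, 0.24 and 5.54 FPKM in vehicle replicates 1 to 4. In both groups replicates 2 and 4 were high and replicates 1 and 3 low (log2 difference 1.37, SE 0.77, limma adjusted p = 0.366). The replicate numbers only name the libraries and do not pair them. Replicates 2 and 4 also had the highest melanoma marker levels of each group (8.38 and 8.42 in tacrolimus libraries, 8.67 and 8.67 in vehicle libraries). A link of Gm3294 to that level was not tested. Mir670hg averaged 10.7 ± 2.04 FPKM in tacrolimus libraries and 8.50 ± 2.65 FPKM in vehicle libraries. Mir142hg, host of a microRNA known from all blood cell lineages, was at 0, 1.44, 2.39 and 0 FPKM in tacrolimus replicates 1 to 4, and at 5.25, 0, 0 and 1.49 FPKM in vehicle replicates 1 to 4. Its annotated spliced transcript has 269 bases, and its log2 difference of -0.23 turned to 0.32 without vehicle replicate 1 and to 0.026 without tacrolimus replicate 1 or 4. C130071C03Rik, host of a neuronal microRNA and named for that host role, averaged 1.79 ± 0.86 FPKM in tacrolimus libraries and 1.63 ± 0.67 FPKM in vehicle libraries. Of the 14 genes listed as microRNA hosts, 3 were members, 3 were tested under other biotypes and none passed. Mir155hg, host of a microRNA induced on activation of lymphocytes and macrophages, stayed outside the rule with 0.89, 0.38, 0.98 and 0.89 FPKM in tacrolimus libraries and 9.38, 0.67, 0.58 and 2.45 FPKM in vehicle libraries.

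AW112010, a mouse transcript inducible by interferon and reported to be translated into a small protein in macrophages, was the most abundant immune lincRNA and sixth among all members. It lies at positions 11047612 to 11055808 of chromosome 19 on the minus strand. It was at 309, 46.7, 213 and 188 FPKM in tacrolimus replicates 1 to 4, and at 1728, 299.7, 391 and 295 FPKM in vehicle replicates 1 to 4. Vehicle replicate 1 was the highest library, tacrolimus replicate 2 was the lowest, and tacrolimus replicate 1 lay above vehicle replicates 2 and 4. The log2 difference was -1.66 (SE 0.66, limma adjusted p = 0.252), and -1.06 without vehicle replicate 1. With the T cell marker level as a covariate the log2 difference was 0.38 (limma adjusted p = 0.366), in a fit that cannot tell that level apart from treatment. With the melanoma marker level it was -2.34 (limma adjusted p = 0.0398), in a fit that 2.26% of members and 2.56% of all genes tested passed. After median-of-ratios scaling it was -1.44 (limma adjusted p = 0.478). Ifngas1, a transcript beside Ifng that promotes its expression in T cells, was at 3.51, 1.25, 1.45 and 0.79 FPKM in tacrolimus replicates 1 to 4, and at 3.90, 0.12, 1.90 and 0.13 FPKM in vehicle replicates 1 to 4. Its groups overlapped (log2 difference 0.33, SE 0.50, limma adjusted p = 0.743). Ifng, 56143 bases away, was at 10.4 ± 5.68 FPKM in tacrolimus libraries and 44.6 ± 38.1 FPKM in vehicle libraries (log2 difference -1.89, limma adjusted p = 0.202), so the neighbours differed in sign. The T cell marker level was likewise highest in vehicle replicate 1 and lowest in tacrolimus replicate 2. None of the 3 immune list members (AW112010, Mir142hg, Ifngas1) passed.

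**Figure D3:**
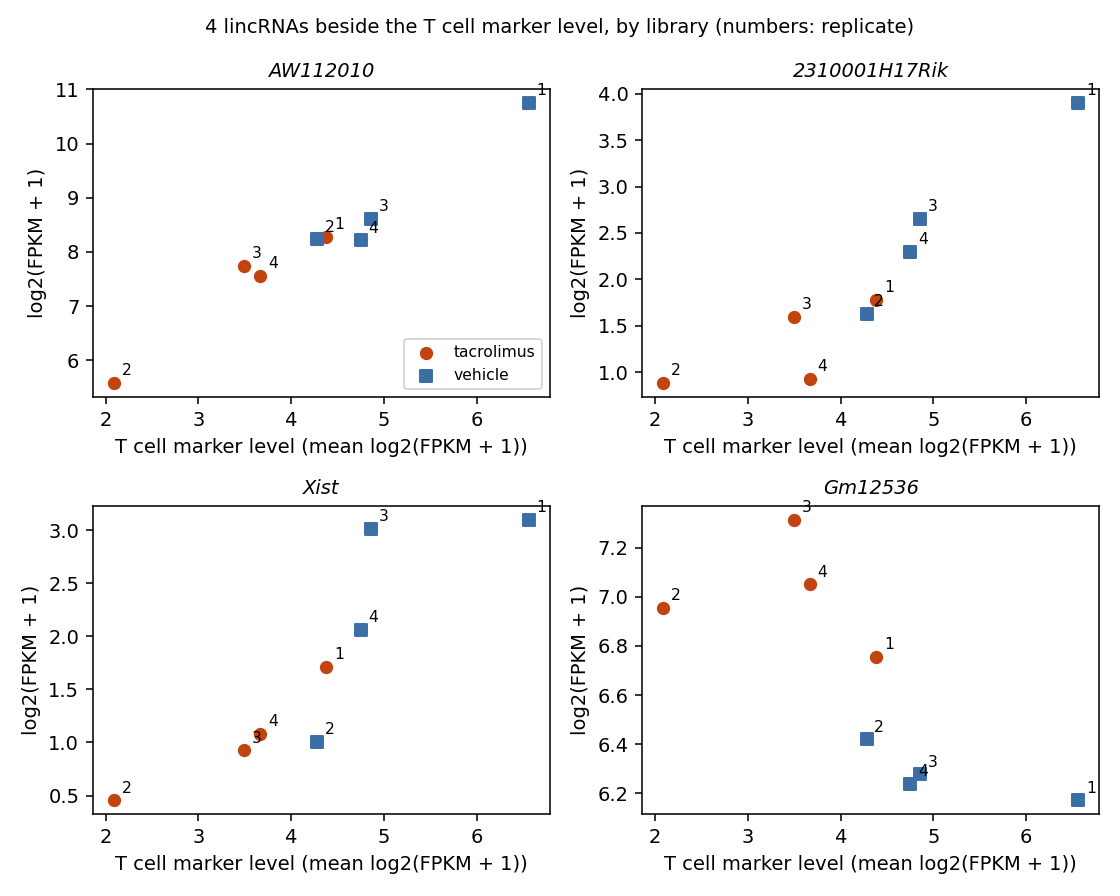
Level of 4 lincRNAs as log2(FPKM + 1) (y axes) against the mean log2(FPKM + 1) of 15 T cell markers (x axes) in each library, with tacrolimus as circles, vehicle as squares and the replicate number beside each point. AW112010, 2310001H17Rik and Xist are highest in vehicle replicate 1, where the T cell marker level is 6.56, and lie low in tacrolimus replicate 2, where it is 2.09; Gm12536 is higher in all 4 tacrolimus libraries.

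The 6 higher members with the smallest unadjusted p are gene models without an annotated function. They were picked by p in these same values, and their groups did not overlap. The first was F930017D23Rik, with 5 exons, at positions 43593397 to 43709668 of chromosome 10, 9132 bases from Cd24a on the same strand. It was at 2.75, 9.40, 2.79 and 2.17 FPKM in tacrolimus replicates 1 to 4, and at 0.08, 0, 0.19 and 0 FPKM in vehicle replicates 1 to 4. All 4 tacrolimus libraries were above 2 FPKM and all vehicle libraries at or under 0.19 FPKM (log2 difference 2.13, SE 0.36, limma adjusted p = 0.147, or 0.0369 with the melanoma marker level as a covariate). It met the expression rule through tacrolimus libraries alone, so its groups had to differ, and neither p-value lends support. With a pseudocount of 0.1 in place of 1 the log2 difference was 4.59. Cd24a, which encodes a surface glycoprotein, averaged 3.08 ± 0.67 FPKM in tacrolimus libraries and 6.42 ± 5.22 FPKM in vehicle libraries, so its mean differed in the other direction.

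C530044C16Rik, a model of 3 exons on chromosome 6, was at 2.66, 8.69, 3.27 and 7.21 FPKM in tacrolimus replicates 1 to 4, and at 1.56, 1.29, 1.18 and 2.56 FPKM in vehicle replicates 1 to 4 (log2 difference 1.19, SE 0.34, limma adjusted p = 0.193). The lowest tacrolimus value and the highest vehicle value were close, at 2.66 and 2.56 FPKM. Gm33838 (chromosome 9) was at 46.8, 30.6, 17.95 and 8.35 FPKM in tacrolimus replicates 1 to 4, and at 8.12, 1.33, 4.30 and 0.11 FPKM in vehicle replicates 1 to 4. The spread was wide within both groups (log2 difference 2.77, SE 0.66, limma adjusted p = 0.179). With the melanoma marker level as a covariate the limma adjusted p was 0.0609 for Gm33838 and 0.0679 for C530044C16Rik. After median-of-ratios scaling the limma adjusted p was 0.392 for Gm33838 and 0.367 for C530044C16Rik. Gm12536, an abundant short model whose exon overlaps Ptpn3 on the opposite strand (chromosome 4, 57300096 to 57307305), was at 107, 123, 158 and 132 FPKM in tacrolimus replicates 1 to 4, and at 71.1, 84.6, 76.6 and 74.5 FPKM in vehicle replicates 1 to 4. The vehicle libraries lay close together and all tacrolimus libraries above them (log2 difference 0.74, SE 0.14, limma adjusted p = 0.179). The limma adjusted p of Gm12536 was 0.0374 with the melanoma marker level as a covariate. Median-of-ratios scaling gave it a log2 difference of 0.97 (limma adjusted p = 0.154). Ptpn3, a tyrosine phosphatase gene, was at 7.08 ± 4.35 FPKM in tacrolimus libraries and 5.77 ± 1.42 FPKM in vehicle libraries. Gm30624 averaged 2.16 ± 0.52 FPKM in tacrolimus libraries and 0.45 ± 0.55 FPKM in vehicle libraries, and Gm15892, 803 bases from Vezf1, 3.56 ± 1.93 FPKM in tacrolimus libraries and 0.78 ± 0.64 FPKM in vehicle libraries. By the estimated depth, Gm30624 rested on about 10 to 20 fragments in tacrolimus libraries and 0 to 7 in vehicle libraries, and Gm15892 on about 19 to 69 in tacrolimus libraries and 0 to 16 in vehicle libraries. The highest vehicle values of Gm30624 were 1.12 and 0.68 FPKM, so it met the expression rule almost through tacrolimus libraries alone. That choice favours a difference.

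The 10 lower members with the smallest unadjusted p included Xist, described above. Gm14461, a model of 6 exons on chromosome 2 far from any coding gene (291172 bases from Cwc22), was at 0.48, 0.79, 1.14 and 0.41 FPKM in tacrolimus replicates 1 to 4, and at 2.15, 4.08, 2.11 and 3.99 FPKM in vehicle replicates 1 to 4. The groups were apart (log2 difference -1.24, SE 0.26, limma adjusted p = 0.179). After median-of-ratios scaling the log2 difference was -1.09. Of its tacrolimus libraries only replicate 3 reached 1 FPKM, so the expression rule was met almost through vehicle libraries alone. That choice favours a difference, so the p-values of this gene lend little support. The limma adjusted p of Gm14461 was 0.0608 with the melanoma marker level as a covariate and 0.334 after median-of-ratios scaling. Vehicle replicate 1, highest in T cell markers, was at 2.15 FPKM here, and the cause of the difference was not tested. Gm19705 was at 2.53, 2.80, 2.36 and 3.70 FPKM in tacrolimus replicates 1 to 4, and at 5.00, 3.92, 6.37 and 5.04 FPKM in vehicle replicates 1 to 4 (log2 difference -0.66, SE 0.20, limma adjusted p = 0.195). Its groups did not overlap, by a margin between 3.70 and 3.92 FPKM. Gm36738 lies 1628 bases from Rac2, a gene of blood cells, on the same strand. It was at 6.73, 2.94, 4.52 and 6.15 FPKM in tacrolimus replicates 1 to 4, and at 10.2, 9.08, 8.94 and 6.77 FPKM in vehicle replicates 1 to 4. Rac2 averaged 21.1 ± 9.93 FPKM in tacrolimus libraries and 79.1 ± 64.2 FPKM in vehicle libraries. The pair shared its sign, with log2 differences of -0.72 for Gm36738 (limma adjusted p = 0.207) and -1.66 for Rac2 (limma adjusted p = 0.193).

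The other 6 lower models overlapped between the groups. 2310001H17Rik, 21878 bases from Clec2d, was at 2.43, 0.84, 2.02 and 0.90 FPKM in tacrolimus replicates 1 to 4, and at 14.0, 2.08, 5.30 and 3.92 FPKM in vehicle replicates 1 to 4 (log2 difference -1.33, SE 0.44, limma adjusted p = 0.206). Vehicle replicate 1 was far above the rest, and without it the log2 difference was -0.90. It was -0.22 with the T cell marker level as a covariate (limma adjusted p = 0.766) and -1.82 with the melanoma marker level (limma adjusted p = 0.0219). After median-of-ratios scaling it was -1.16 (limma adjusted p = 0.439). The fit with the T cell marker level cannot tell that level apart from treatment. Gm5547 averaged 1.16 ± 0.60 FPKM in tacrolimus libraries and 5.25 ± 5.56 FPKM in vehicle libraries, where vehicle replicate 1 alone was at 13.5 FPKM. Its log2 difference of -1.23 was -0.71 without that library. Gm36161 averaged 2.41 ± 0.51 FPKM in tacrolimus libraries and 7.54 ± 5.29 FPKM in vehicle libraries, with 14.0 FPKM in vehicle replicate 1 and 9.70 FPKM in vehicle replicate 4. 4930405D11Rik averaged 2.22 ± 1.17 FPKM in tacrolimus libraries and 6.33 ± 4.31 FPKM in vehicle libraries, with 12.8 FPKM in vehicle replicate 4. 2810429I04Rik averaged 2.57 ± 0.69 FPKM in tacrolimus libraries and 4.79 ± 1.301 FPKM in vehicle libraries. Gm13166 averaged 13.3 ± 2.22 FPKM in tacrolimus libraries and 20.3 ± 4.80 FPKM in vehicle libraries, and its nearest coding gene, the zinc finger gene Zfp600, 2.23 ± 1.29 FPKM in tacrolimus libraries and 0.36 ± 0.25 FPKM in vehicle libraries.

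**Figure D4:**
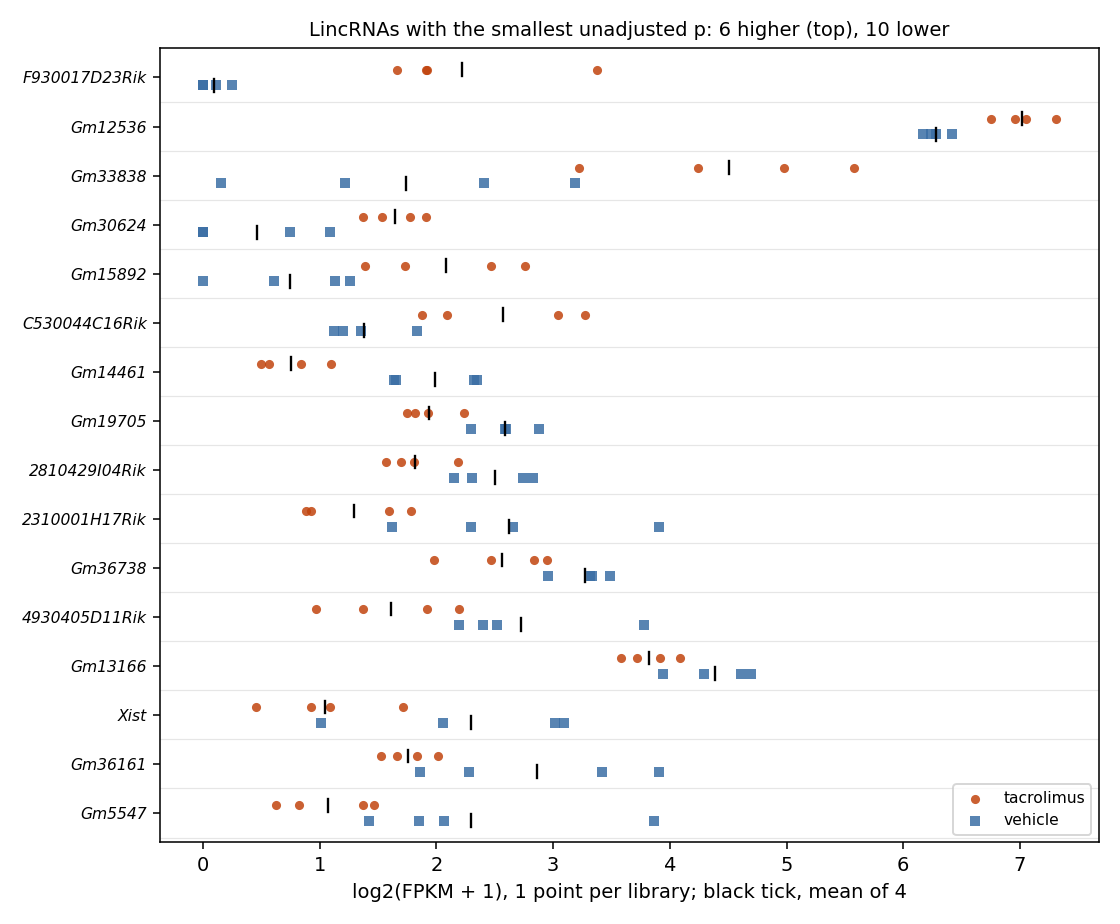
Level of the 6 higher (top) and 10 lower lincRNAs with the smallest unadjusted p (rows) as log2(FPKM + 1) (x axis), with 1 point per library, tacrolimus circles above vehicle squares, and a black tick at each mean of 4. In all 6 higher rows the circles lie right of the squares; of the lower rows, Gm14461, Gm19705 and Gm36738 have no overlap.

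The libraries in which members peaked were counted. Over all members, 63 (23.8%) were highest in vehicle replicate 1, against 20.2% of all genes tested, and 40 (15.1%) in vehicle replicate 2, against 38.5% of all genes tested. Both extremes together, highest in vehicle replicate 1 and lowest in tacrolimus replicate 2, were met by 20 members (7.55%), against 7.12% of all genes tested. Of the 15 members lower at an unadjusted p under 0.05, whose choice favours a peak in a vehicle library, 9 (60.0%) were highest in vehicle replicate 1, against 49.5% of the 2056 genes lower at that p. Tacrolimus replicate 2 was lowest for 7 of them (46.7%), against 30.9% of those genes. With the T cell marker level as a covariate, 9 members (3.40%) were lower at that p in place of 15, where 18.3% of all genes were, against 15.8% without it. In the same fit 26 members (9.81%) were higher in place of 13, where 2.54% of all genes were. Without vehicle replicate 1, 9 of the 15 lower members and 12 of the 13 higher members kept an unadjusted p under 0.05 with the same sign.

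Promoter windows from RefSeq (GRCm38.p6, 250 bases before to 50 after the start) were matched by symbol to 143 members, and for 107 the window start lay within 100 bases of a GENCODE transcript start. They were searched on both strands for letters related to the treatment and the tumor: the interferon-stimulated response element (GAAA repeated after any 2 bases), TTCNNNGAA (the interferon gamma activated site), TGGAAA (the core bound by NFAT), TGANTCA (AP-1) and CACGTG (the E-box bound by MITF and MYC). The interferon-stimulated letters were in 2 of the 107 windows (1.87%), against 3.44% of 32851 windows of all genes, and TGGAAA in 28 (26.2%), against 21.4%. TTCNNNGAA was in 9 (8.41%, against 8.30%), TGANTCA in 6 (5.61%, against 7.81%) and CACGTG in 8 (7.48%, against 7.15%). These matches are descriptions of letters, not binding sites. The windows of 2 members higher and 2 lower in tacrolimus libraries are shown 5′ to 3′ on the strand of the gene, with matches in capitals, as examples of members described above. That of AW112010 lies inside the gene, at the start of the shorter of its 2 annotated transcripts.
F930017D23Rik, chr10:43593177-43593476, plus strand: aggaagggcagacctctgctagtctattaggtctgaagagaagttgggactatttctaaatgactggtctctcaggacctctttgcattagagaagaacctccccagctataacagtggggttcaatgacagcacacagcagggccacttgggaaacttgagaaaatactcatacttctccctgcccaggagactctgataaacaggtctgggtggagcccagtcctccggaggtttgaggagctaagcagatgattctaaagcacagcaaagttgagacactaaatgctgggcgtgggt
C530044C16Rik, chr6:50775865-50776164, plus strand: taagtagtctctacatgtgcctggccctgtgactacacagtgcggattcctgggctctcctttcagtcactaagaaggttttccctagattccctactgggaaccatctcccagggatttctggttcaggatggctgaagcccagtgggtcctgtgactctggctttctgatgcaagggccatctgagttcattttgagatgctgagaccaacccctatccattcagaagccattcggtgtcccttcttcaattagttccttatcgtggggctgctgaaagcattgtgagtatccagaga
Gm14461, chr2:78237297-78237596, plus strand: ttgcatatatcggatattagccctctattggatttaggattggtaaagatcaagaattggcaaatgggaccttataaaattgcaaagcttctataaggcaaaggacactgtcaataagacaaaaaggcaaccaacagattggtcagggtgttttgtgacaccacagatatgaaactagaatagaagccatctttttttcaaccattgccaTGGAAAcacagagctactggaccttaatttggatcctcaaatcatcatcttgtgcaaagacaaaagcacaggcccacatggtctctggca
AW112010, chr19:11050517-11050816, minus strand: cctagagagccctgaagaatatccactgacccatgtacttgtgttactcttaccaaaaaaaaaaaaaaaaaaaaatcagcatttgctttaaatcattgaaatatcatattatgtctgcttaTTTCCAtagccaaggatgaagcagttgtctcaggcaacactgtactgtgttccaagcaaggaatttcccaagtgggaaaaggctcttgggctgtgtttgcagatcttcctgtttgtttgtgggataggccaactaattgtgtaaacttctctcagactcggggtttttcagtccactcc

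The windows of F930017D23Rik and C530044C16Rik held none of the 5 sets of letters. Those of Gm14461 and AW112010 held the NFAT core letters once each, as TGGAAA in Gm14461 and as its reverse complement TTTCCA in AW112010. The NFAT core letters were not held by lower members alone or by all of them. Among the other lower members with the smallest unadjusted p and a window, Gm19705 and Gm5547 held them once each and 4930405D11Rik 2 times. In the windows of 2810429I04Rik, 2310001H17Rik, Gm36738, Xist and Gm36161 there were none. Bc1 and Lncpint, with a higher mean in tacrolimus libraries, held them once each, while Malat1 and Ftx, also with a higher mean, held none. Whether these letters relate to the differences was not tested.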

How the data were processed

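RNA sequencing libraries, 4 tacrolimus and 4 vehicle, were grouped by their titles. Per the labels' protocols, RNA of sorted CD8+ lymphocytes was extracted with Trizol. The submitters' processing notes name HISAT2 2.1.0, RSEM 1.3.1, DESeq2 1.24.0 and build GRCm38.p6, with no role or order. The authors deposited 1 value per gene, whose unit no header or label names, and these were taken as FPKM, scaled by the authors for transcript length and depth, from the values themselves: sums per library differ, and low values come in steps that shrink with transcript length. Of 55487 gene identifiers, 55227 matched GENCODE M21 (GRCm38), which gave biotypes, symbols and coordinates. In such estimates an exact 0 can be a failed estimate.

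Values were transformed to log2(FPKM + 1), so differences of low genes are understated. The 13032 genes at 1 FPKM or more in at least 4 libraries were fitted in R 4.3.3 with limma 3.58.1 (treatment term only, mean-variance trend, two-sided), adjusting p over all of them with a threshold of 0.05. The members and lists were chosen with earlier results of these data known. Named were the 10 most abundant members, the 6 higher and 10 lower with the smallest unadjusted p, members of the noncoding RNA lists, and the member with the widest log2 range within a group. Depth was estimated from the spacing of low values: 86.3% to 88.2% of them were within 0.15 steps of a whole number of fragments, against 30% if evenly spread. The fit was tested on simulated data. Alternatives were other pseudocounts, filters, scalings, variance estimates, library weights, marker covariates, a replicate block and each library left out. Python 3.11.15 and matplotlib 3.10.9 drew the plots.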

Additional observations from a re-analysis of the deposited data

Results flagged for a closer look

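Within each group of 4, single libraries stood apart in 4 of the 86 group values of the 43 named lincRNAs, judged by the gap to the nearest library relative to the range of the group; chance flags about 1 group in 20. AW112010 was at 1728 FPKM in vehicle replicate 1, against 295 to 391 FPKM in vehicle replicates 2 to 4. Gm5547 was at 13.5 FPKM in vehicle replicate 1, where the others lay between 1.68 and 3.19 FPKM. 4930405D11Rik was at 12.8 FPKM in vehicle replicate 4, where the others lay between 3.57 and 4.74 FPKM. F930017D23Rik was at 9.40 FPKM in tacrolimus replicate 2, where the others lay between 2.17 and 2.79 FPKM.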

How the results depend on the processing

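No member passed an adjusted p of 0.05 in limma under 18 of the 20 alternatives. With the melanoma marker level as a covariate 6 passed (F930017D23Rik and Gm12536 higher; AW112010, 2310001H17Rik, Gm19585 and Gm47705 lower), among 334 genes in all (2.26% of members, 2.56% of genes). The replicate numbers only name the libraries: the deviations of same-numbered libraries correlated at 0.21, 0.28, -0.020 and -0.022. With a replicate block 2 members passed (Gm33838 with an adjusted p of 0.0344 and Gm3294 with 0.0362, both higher), among 121 genes in all, with 20 members higher and 24 lower by unadjusted p (276 and 2587 genes). Members higher at an unadjusted p under 0.05, 13 as reported, numbered 35 with median-of-ratios (741 of all 13032 genes) and 35 with upper-quartile scaling (723), 26 with the T cell marker covariate (331), 8 with no filter on low values (426 of 28614), and 8 to 27 with a library left out (144 to 289). Members lower, 15 as reported, numbered 4 and 5 with the 2 scalings (735 and 778 of all genes). They numbered 9 with the T cell marker covariate (2385) and 27 with the melanoma marker covariate (2052). With a library left out they numbered 9 to 25, where 1313 to 2500 of all genes were lower, but these ranges do not run in step. The 9 stood beside 1592 genes (without tacrolimus replicate 2) and the 25 beside 1665 (without vehicle replicate 2). The median difference of the members lay between -0.0020 and 0.20.

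Of the 43 named members, 35 kept their direction under all 20 alternatives. The log2 difference turned for AW112010 (0.38) and Bvht (-0.40) with the T cell marker covariate, and for Ftx (-0.065), Ifngas1 (-0.21), 4930579D07Rik (-0.045) and Gm44386 (0.018) with the melanoma marker covariate. It turned for Gm44386 with median-of-ratios (0.13) and upper-quartile scaling (0.13). Mir142hg turned with library weights (0.14), the T cell marker covariate (0.31) and with single libraries left out (-0.56 to 0.32, with 0.026 without tacrolimus replicate 1 or 4). With a library left out, 4930579D07Rik lay between -0.19 and 0.20 (also -0.022 and -0.032), Bvht between -0.043 and 0.31 and Gm28818 between -0.060 and 1.88. The cause of these turns was not tested. At the estimated depth, values under 0.0689 to 0.0861 FPKM on a transcript of 1000 bases are less than 1 fragment.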

Other observations

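Gm28818 had the widest log2 range within a group of any member. It was at 38.1, 33.8, 55.3 and 33.9 FPKM in tacrolimus replicates 1 to 4, and at 55.0, 38.2, 33.0 and 0 FPKM in vehicle replicates 1 to 4. Vehicle replicate 4 is thus listed at 0 for a lincRNA that all other libraries held above 30 FPKM, and its log2 difference of 1.29 was -0.060 without that library.

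Among the 268 lincRNAs that reached 1 FPKM in 1 to 3 libraries, 14 were at 10 FPKM or more in a single library and listed at 0 in 6 or 7 libraries. Gm23925 was at 55.3 FPKM in vehicle replicate 3, Rmst, a neuronal lincRNA, at 36.0 FPKM in tacrolimus replicate 4, and AC161258.2 at 31.4 FPKM in tacrolimus replicate 2, with 0 in all other libraries. Such single-library levels occurred in both groups. Of the 268, 103 reached 1 FPKM in tacrolimus libraries alone and 112 in vehicle libraries alone.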
